A study of Homo sapiens with 6 samples.

Results

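A set of 35 genes of the actomyosin apparatus was followed in human osteosarcoma cells with and without ARID1A, a DNA-binding subunit of the SWI/SNF (BAF) chromatin remodelers. They comprise actins, alpha-actinins, tropomyosins, myosin heavy and light chains with their kinase, calponins, transgelins, other thin filament regulators, filamins, adhesion plaque proteins and 2 transcription factors. The genes were taken by their names, with no threshold on their values, though earlier results of these data were known. All 35 were found among the 57820 genes listed in each sample. RNA-seq had been performed on 3 WT and 3 ARID1A-KO samples of AID-DIvA cells (AID-DivA in the labels), numbered 3 to 5 in each genotype. AID-DIvA is a derivative of the osteosarcoma line U2OS that carries the restriction enzyme AsiSI, which cuts the genome only after induction. All 6 samples were untreated, so both genotypes carried the enzyme without induced breaks. The ARID1A-KO cells were made with Cas9 and guide RNAs against ARID1A and grown from single clones. The sources do not say which clone or how many clones were sequenced, so effects of genotype and clone cannot be told apart.

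Actomyosin is the contractile system of both muscle and non-muscle cells. Non-muscle myosin II, built from heavy chains, regulatory light chains and essential light chains, pulls on actin filaments, and phosphorylation of the regulatory light chain switches the motor on. Tropomyosins, calponins, caldesmon and transgelins lie along the filaments and control which motors and binding proteins reach them, alpha-actinins and filamins crosslink them, and vinculin, talin and zyxin couple them to the matrix at focal adhesions. In osteosarcoma and other mesenchymal cells these parts form stress fibers. Many of the genes are transcribed under serum response factor (SRF), which binds the CArG box and works with myocardin or with the actin-sensing myocardin-related factors.

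ARID1A itself, at 166, 178 and 177 CPM (TMM-normalized counts scaled to the library size) in WT, fell to 25.1, 27.5 and 25.2 in ARID1A-KO samples. Reverse-stranded gene counts summed to between 54512105 and 84088708 per sample. Among markers of bone cells, COL1A1 and SPARC were abundant, while SP7, IBSP and BGLAP had too few counts to be tested. The 9 osteoblast markers summed to between 1235 and 1295 CPM in WT and between 726 and 809 CPM in ARID1A-KO, and 4 of the 6 tested (66.7%) were lower, against 18.4% of all genes tested, and none higher. In bulk RNA, fewer cells with a transcript and less of it per cell cannot be told apart. Epithelial markers (4 genes) summed to 8.92 to 12.9 CPM in WT and 12.3 to 14.8 CPM in ARID1A-KO. Of these, 1 was called higher and 1 lower (25% each), against 17.8% and 18.4% of all genes tested. Endothelial and leukocyte markers (5 genes) summed to 3.83 to 4.86 CPM in WT and 2.42 to 3.14 CPM in ARID1A-KO, with CD3E at or near 0. Among the 4 tested, 1 was lower, PTPRC (25%, against 18.4% of all genes tested). The part of these shifts in the results on contractile genes was not tested.

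The contractile genes differed widely in level, as the plot of transcript levels in each sample shows. In WT samples the highest, per length, was the cytoplasmic gamma-actin ACTG1, with 1626 ± 134 TPM (SD, n = 3), a measure of transcripts corrected for gene length and scaled to the library, followed by TAGLN2 with 1399 ± 80.6 TPM and the regulatory light chain MYL12B with 1207 ± 37.0 TPM. The lowest were the smooth muscle genes ACTG2, MYH11 and MYOCD, with means of 0.0044, 0.025 and 0.051 TPM. The 35 genes together made up 0.749, 0.806 and 0.809% of the summed TPM in WT samples and 0.743, 0.787 and 0.749% in ARID1A-KO samples, so the ranges overlapped.

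**Figure D1:**
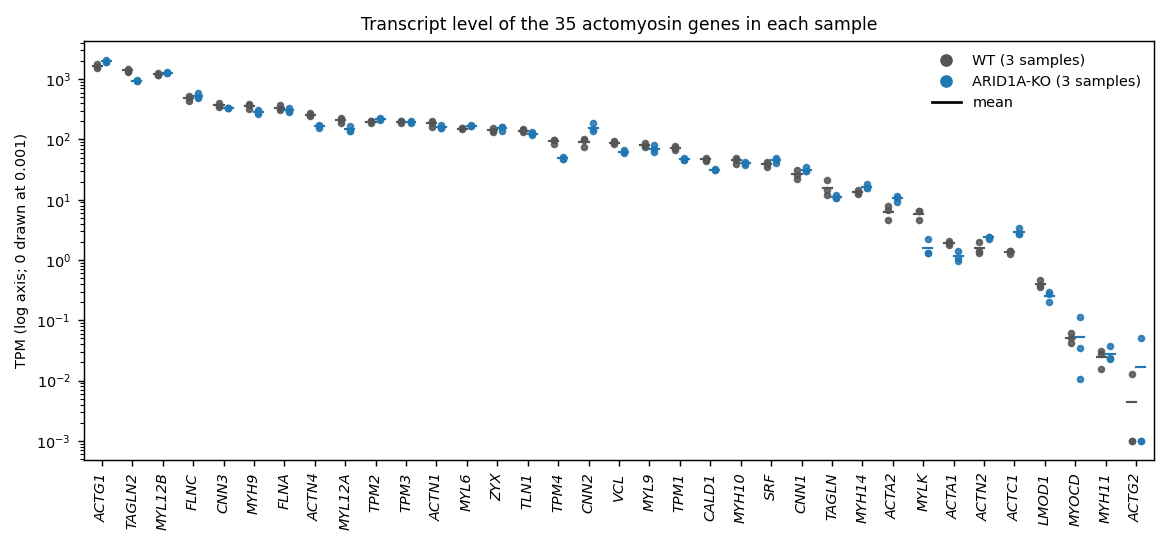
TPM of each of the 35 genes (log axis, with 0 drawn at 0.001) in the 3 WT and 3 ARID1A-KO samples, points being samples and lines the means. Levels run from ACTG1, with a WT mean of 1626 TPM, to ACTG2, with 0.0044 TPM, and MYLK, TPM4 and CNN2 are among the genes whose points separate by genotype.

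Of the 35 genes, 32 had enough counts to be tested, and the filter on low counts removed ACTG2, MYH11 and MYOCD. At an adjusted p under 0.05 from edgeR's quasi-likelihood test, 18 of the 32 (56.2%) differed between genotypes, against 36.2% of all 19599 genes tested. They were split in direction. Higher in ARID1A-KO cells were 7 (21.9%), against 17.8% of all genes, and lower were 11 (34.4%), against 18.4%. The higher genes were ACTA2, ACTC1, ACTG1, ACTN2, MYH14, MYL6 and CNN2. The lower genes were ACTA1, ACTN4, TPM1, TPM4, MYH9, MYL12A, MYLK, TAGLN, TAGLN2, CALD1 and VCL. The median log2 fold change of the 32 genes was -0.15, with a range from -1.86 to 1.12, and that of all genes tested was 0.0066.

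Most changes were of moderate size. A change of at least 2-fold was seen for 2 of the 32 genes, MYLK and ACTC1, while 10.8% of all genes were called with at least that change. The CPM of the genotypes did not overlap for 21 of the 32, against 49.5% of all genes. Among well-expressed genes, with a mean log2 CPM over 5, 12 of 23 contractile genes (52.2%) were called, 4 higher and 8 lower, against 37.9% of all such genes. Of the 18 calls, 10 were also made in every one of the 13 alternative analyses, namely ACTC1 and CNN2, which were higher, and ACTN4, TPM1, TPM4, MYL12A, MYLK, TAGLN2, CALD1 and VCL, which were lower. The other 8 calls were lost in at least 1 alternative. The plot of fold changes sets each gene beside the median change of the other tested genes whose start lies within 5 Mb, since a change shared by a chromosome region would appear in both.

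**Figure D2:**
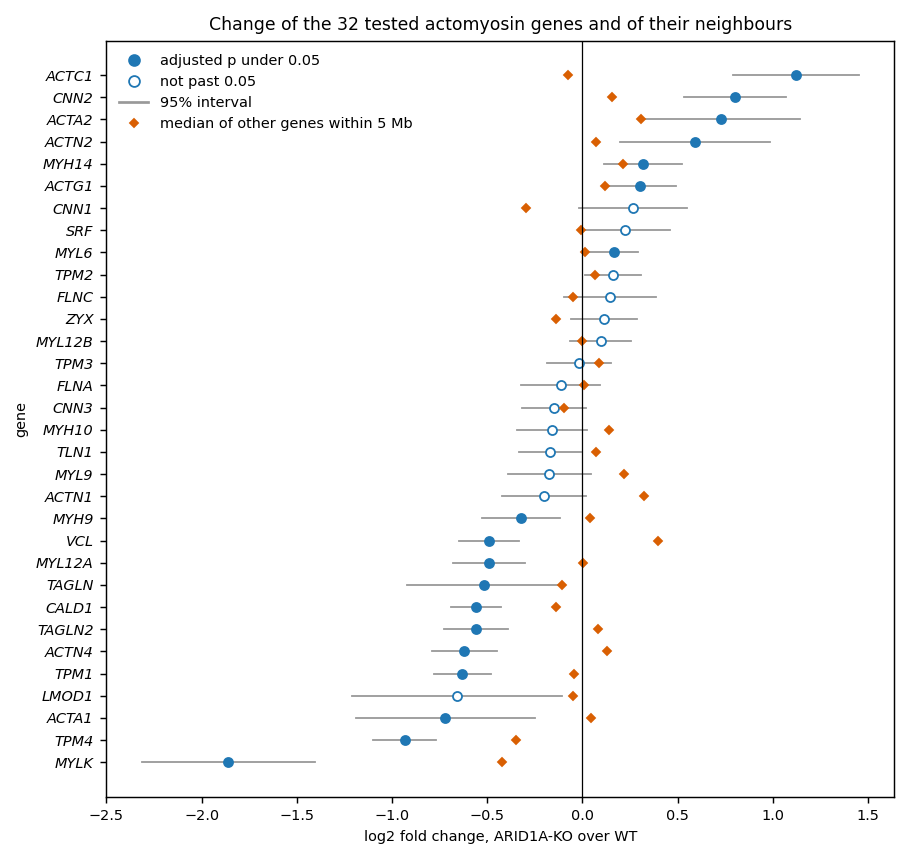
Log2 fold change (ARID1A-KO over WT, horizontal axis) of the 32 tested genes, with 95% intervals, filled points marking an adjusted p under 0.05 and diamonds the median of the other genes within 5 Mb. The points run from MYLK at -1.86 to ACTC1 at 1.12, with 11 filled points below 0 and 7 above.

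The promoters of these genes were searched for the CArG box, the sequence that SRF binds, because genes on both sides of the comparison belong to the classical SRF targets. RefSeq promoter windows (GRCh38.p14, 250 bases before to 50 bases after a transcript start) were at hand for 31 of the 35 genes, in 53 windows; MYH11, MYL9, TAGLN and MYOCD had no entry. A CArG box on either strand (the motif reads the same on both) was found for 10 of the 31 genes (32.3%), against 438 of 27305 genes with a window (1.6%), and in 10 of the 53 windows (18.9%), against 454 of all 35116 windows (1.29%). The list holds genes picked in the field as SRF targets, so this share is no independent evidence. Only exact matches were counted, with CC and GG around A or T alone, 10 bases in all. A box that departs from this at any base was missed, so a gene without a match may still carry one. Boxes lay in windows of 3 of the 7 genes called higher (ACTC1, ACTG1 and CNN2) and of 3 of the 10 called lower that had a window (ACTA1, TPM4 and MYLK). They were also found for 3 of the 13 tested but not called (ACTN1, FLNA and SRF) and for the untested ACTG2. The ACTN1 box belongs to an internal start, 1736 bases inside the gene, and the other windows of ACTN1 had none. Stretches of 60 bases are shown for the called genes and for SRF, to set boxes of genes that moved in opposite directions side by side, with the box in capitals. They lie at chr15:34795624-34795683 (minus strand) for ACTC1, chr17:81512859-81512918 (minus) for ACTG1, chr19:1026494-1026553 (plus) for CNN2, chr1:229434157-229434216 (minus) for ACTA1, chr19:16067340-16067399 (plus) for TPM4, chr3:123620608-123620667 (minus) for MYLK and chr6:43171209-43171268 (plus) for SRF. The letters run 5′ to 3′ on the gene's strand.
ACTC1: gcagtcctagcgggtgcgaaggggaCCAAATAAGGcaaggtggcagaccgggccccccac
ACTG1: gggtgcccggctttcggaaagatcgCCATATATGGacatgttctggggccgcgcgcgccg
CNN2: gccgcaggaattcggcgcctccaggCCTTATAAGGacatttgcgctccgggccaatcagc
ACTA1: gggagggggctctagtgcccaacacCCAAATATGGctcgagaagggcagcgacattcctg
TPM4: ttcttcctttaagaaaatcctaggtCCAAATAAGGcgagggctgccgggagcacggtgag
MYLK: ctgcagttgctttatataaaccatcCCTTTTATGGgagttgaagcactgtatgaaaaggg
SRF: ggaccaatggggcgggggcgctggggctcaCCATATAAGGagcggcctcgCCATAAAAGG
ACTC1, which was higher, and TPM4, which was lower, carried the same 10 bases in capitals, 109 and 173 bases before their starts. In ACTG1, CNN2 and ACTA1 the box began 94, 89 and 97 bases before the start, and SRF had boxes beginning 30 and 10 bases before it. The MYLK window belongs to an internal start, 263784 bases inside the gene, which RefSeq places at chr3:123610049-123884332. This is the start of a short transcript (telokin) that lacks the kinase domain, and the gene counts do not separate it from the full-length kinase. A match is a description of the letters and not a site of SRF binding in these cells, which was not measured here.

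MYLK, the myosin light chain kinase that phosphorylates the regulatory light chain, had the largest change of the 32 genes. It had 43.3, 31.7 and 43.8 CPM in WT samples and 9.09, 8.84 and 14.6 CPM in ARID1A-KO samples. Every ARID1A-KO sample lay below every WT sample, and the means were 39.6 ± 6.87 and 10.9 ± 3.27 CPM (SD, n = 3). The gene was 3.63-fold lower in ARID1A-KO cells (log2 fold change -1.86, SE 0.20, adjusted p = 0.000134). MYLK (ENSG00000065534.14) lies on the minus strand of chromosome 3 from 123328896 to 123603178 (GRCh37), and the median log2 fold change of its 86 neighbours was -0.42. Taking that median off left a log2 fold change of -1.43 (adjusted p = 0.000713). Antisense genes such as MYLK-AS1 overlap it on the other strand, and counts from that strand came to 14.8% of its reverse-stranded counts.

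The light chains that MYLK acts on, and their essential partner, moved in different directions. MYL12A, a regulatory light chain of non-muscle myosin, had 219, 187 and 209 CPM in WT and 140, 137 and 160.5 CPM in ARID1A-KO samples. The genotypes did not overlap, and MYL12A fell by 0.49 on the log2 scale (SE 0.083, adjusted p = 0.00168), while its neighbours had a median of 0.0029. MYL12B, the near-identical regulatory chain encoded next to it on chromosome 18, had 625, 673 and 644 CPM in WT and 743, 687 and 647 CPM in ARID1A-KO samples, which overlapped. Its log2 fold change was 0.096, with a 95% interval from -0.064 to 0.26 (adjusted p = 0.324). Reads of such close copies can be shared or split in counting, so the separate values of MYL12A and MYL12B are uncertain. MYL9, the regulatory chain most abundant in smooth muscle, also overlapped between genotypes, with 28.2, 27.0 and 32.2 CPM in WT and 23.4, 25.5 and 28.4 CPM in ARID1A-KO samples and a log2 fold change of -0.17 (adjusted p = 0.190). With its neighbours' median of 0.22 taken off, the value of MYL9 was -0.39 (adjusted p = 0.0138). MYL6, the essential light chain, had 211, 208 and 219 CPM in WT and 242, 233 and 241 CPM in ARID1A-KO samples. These ranges did not overlap, but the change was small, at 0.17 (SE 0.056, adjusted p = 0.0438), and the call was lost whichever sample was left out, with adjusted p between 0.0593 and 0.13, and in 5 of the 7 alternatives that kept all samples (0.0547 to 0.138). MYL6 overlaps MYL6B on the same strand, and counting by strand does not keep those apart.

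Among the heavy chains, the main one of these cells was lower and a minor one higher. MYH9, the heavy chain of non-muscle myosin IIA, had 866, 1018 and 1078 CPM in WT and 761, 845 and 758 CPM in ARID1A-KO samples. All 3 ARID1A-KO samples lay below the lowest WT sample, and MYH9 fell by 0.32 on the log2 scale (SE 0.091, adjusted p = 0.0206). The call was lost without ARID1A-KO 3 (adjusted p = 0.0682), WT 4 (0.0512) or WT 5 (0.0785). MYH14, the heavy chain of non-muscle myosin IIC, had 38.6, 38.4 and 43.5 CPM in WT and 48.9, 56.2 and 45.1 CPM in ARID1A-KO samples, again without overlap, and rose by 0.32 (SE 0.092, adjusted p = 0.0233). Its 295 neighbours on chromosome 19 had a median of 0.21, and with it taken off the log2 fold change was 0.10 (adjusted p = 0.423). Without ARID1A-KO 4, WT 3 or WT 4 the adjusted p of MYH14 was 0.0994, 0.0915 and 0.0598. MYH10, the heavy chain of non-muscle myosin IIB, overlapped between genotypes, at 124, 110 and 137 CPM in WT and 107, 111 and 114 CPM in ARID1A-KO samples. Its log2 fold change was -0.16 (adjusted p = 0.158), without WT 4 it was -0.24 (adjusted p = 0.0315), and with the neighbours' median of 0.14 taken off it was -0.30 (adjusted p = 0.0219). MYH11, the smooth muscle heavy chain, had 5, 11 and 8 reverse-stranded counts in WT and 8, 10 and 10 in ARID1A-KO samples. Nearly all reads in its interval lay on the other strand, where NDE1 overlaps it.

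The actins, which form the filament itself, included 3 genes that rose and 1 that fell. ACTG1, by far the most abundant of the 5 listed actins, had 1360, 1617 and 1445 CPM in WT and 1840, 1905 and 1712 CPM in ARID1A-KO samples. The genotypes did not overlap, and ACTG1 rose by 0.30 on the log2 scale (SE 0.083, adjusted p = 0.0182). The call was lost without ARID1A-KO 4 (adjusted p = 0.0852), WT 3 (0.0835) or WT 5 (0.0675), and with the neighbours' median of 0.12 taken off (0.114). ACTC1, the cardiac alpha-actin, was low but changed most among the genes that rose, with 1.74, 2.0 and 2.01 CPM in WT and 3.95, 3.82 and 4.72 CPM in ARID1A-KO samples. Every ARID1A-KO sample was above every WT sample, and the gene was 2.18-fold higher (log2 fold change 1.12, SE 0.15, adjusted p = 0.000379), whereas its 62 neighbours had a median of -0.074.

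ACTA2, the smooth muscle alpha-actin and a marker of myofibroblasts, had 4.15, 7.21 and 6.25 CPM in WT and 8.77, 9.99 and 10.4 CPM in ARID1A-KO samples. The groups did not overlap, and ACTA2 rose by 0.73 (SE 0.18, adjusted p = 0.0129). Its neighbours on chromosome 10 had a median of 0.31, and with it taken off the value was 0.42 (adjusted p = 0.109). Genes such as ACTA2-AS1 overlap ACTA2 on the other strand, and counts from that strand came to 14.5% of its reverse-stranded counts. In counts without regard to strand the value of ACTA2 was 0.62 (adjusted p = 0.0184). ACTA1, the skeletal alpha-actin, was below 1 CPM, with 0.869, 0.803 and 0.962 CPM in WT and 0.514, 0.437 and 0.625 CPM in ARID1A-KO samples. It went the other way from ACTC1 and ACTA2 and fell by 0.72 (SE 0.21, adjusted p = 0.0237). That call was lost without ARID1A-KO 3 (adjusted p = 0.0732), ARID1A-KO 4 (0.0926), WT 3 (0.0578) or WT 5 (0.0701), and by DESeq2 with all samples (0.0688). ACTG2, the enteric smooth muscle actin, had 1 count in 1 WT sample and 5 in ARID1A-KO 5, and none in the other samples.

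Of the tropomyosins, which run along the actin filament, 2 were lower and 2 did not pass the test. TPM4 had 189, 224 and 219 CPM in WT and 111, 108 and 112 CPM in ARID1A-KO samples. Both groups were tight and far apart, at 210 ± 19.0 and 110.2 ± 1.81 CPM (SD, n = 3). TPM4 was 1.91-fold lower in ARID1A-KO cells (log2 fold change -0.93, SE 0.074, adjusted p = 2.37e-05), the smallest adjusted p of the 32 genes. Its 227 neighbours on chromosome 19 had a median of -0.35, and with it taken off the value was -0.58 (adjusted p = 0.000408). TPM1 had 184, 202 and 174 CPM in WT and 122, 119 and 121 CPM in ARID1A-KO samples. These ranges did not overlap either, and TPM1 fell by 0.63 (SE 0.067, adjusted p = 0.000115), while its neighbours had a median of -0.045. TPM2, the beta-tropomyosin, had 228, 250 and 256 CPM in WT and 274, 281 and 264 CPM in ARID1A-KO samples. Its samples did not overlap, but its log2 fold change of 0.16 did not pass the test (adjusted p = 0.0816). TPM3 overlapped, at 476, 509 and 519 CPM in WT and 534, 500 and 454 CPM in ARID1A-KO samples, with a log2 fold change of -0.016 and a 95% interval from -0.19 to 0.15 (adjusted p = 0.889).

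The proteins that decorate the thin filament were lower in 3 cases and higher in 1. CALD1, caldesmon, which restrains myosin on the filament, had 147, 141 and 136 CPM in WT and 98.6, 92.9 and 95.8 CPM in ARID1A-KO samples. No sample overlapped, and CALD1 fell by 0.56 (SE 0.059, adjusted p = 0.000112). TAGLN2, the broadly expressed transgelin and the most abundant of this class, had 996, 1048 and 1136 CPM in WT and 740, 743 and 673 CPM in ARID1A-KO samples. It also fell by 0.56 (SE 0.075, adjusted p = 0.000439), without overlap. TAGLN, the smooth muscle transgelin (SM22-alpha), had 16.9, 25.3 and 14.7 CPM in WT and 13.3, 14.2 and 12.3 CPM in ARID1A-KO samples. WT 4 stood above the other samples of its genotype. TAGLN fell by 0.52 (SE 0.18, adjusted p = 0.0483) with all samples and had a value of -0.25 without WT 4 (adjusted p = 0.0971). Its call was lost in 4 of the other 5 cases of leaving out a sample as well, without WT 3 (adjusted p = 0.0558), ARID1A-KO 3 (0.106), ARID1A-KO 4 (0.0799) or ARID1A-KO 5 (0.107). It was also lost in counts without regard to strand (adjusted p = 0.0526), with at least 10 counts in every sample (0.0501) and with the neighbours' median taken off (0.112).

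Calponins differed among themselves. CNN2, the calponin of non-muscle cells, had 114, 89.6 and 121 CPM in WT and 173, 178 and 213 CPM in ARID1A-KO samples. Every ARID1A-KO sample was above every WT sample, and CNN2 was 1.74-fold higher (log2 fold change 0.80, SE 0.12, adjusted p = 0.000769), with a median of 0.16 among its neighbours. CNN3, the most abundant calponin, had 302, 351 and 302 CPM in WT and 295, 291 and 277 CPM in ARID1A-KO samples, and its log2 fold change of -0.15 did not pass the test (adjusted p = 0.147). CNN1, the smooth muscle calponin, overlapped between genotypes, at 22.7, 19.9 and 28.2 CPM in WT and 27.6, 31.3 and 26.1 CPM in ARID1A-KO samples. Its log2 fold change was 0.26 (adjusted p = 0.133), 0.41 without WT 5 (adjusted p = 0.0227) and 0.56 with the median of its 236 neighbours, -0.30, taken off (adjusted p = 0.00894). Without the filter on low counts its adjusted p was 0.0334. LMOD1, a filament nucleator of smooth muscle, was below 1 CPM in every sample and had a log2 fold change of -0.66 (adjusted p = 0.0631, or 0.0463 with at least 10 counts in every sample), which was 0.021 in counts taken without regard to strand. Counts from the other strand were 605% of its reverse-stranded counts.

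**Figure D3:**
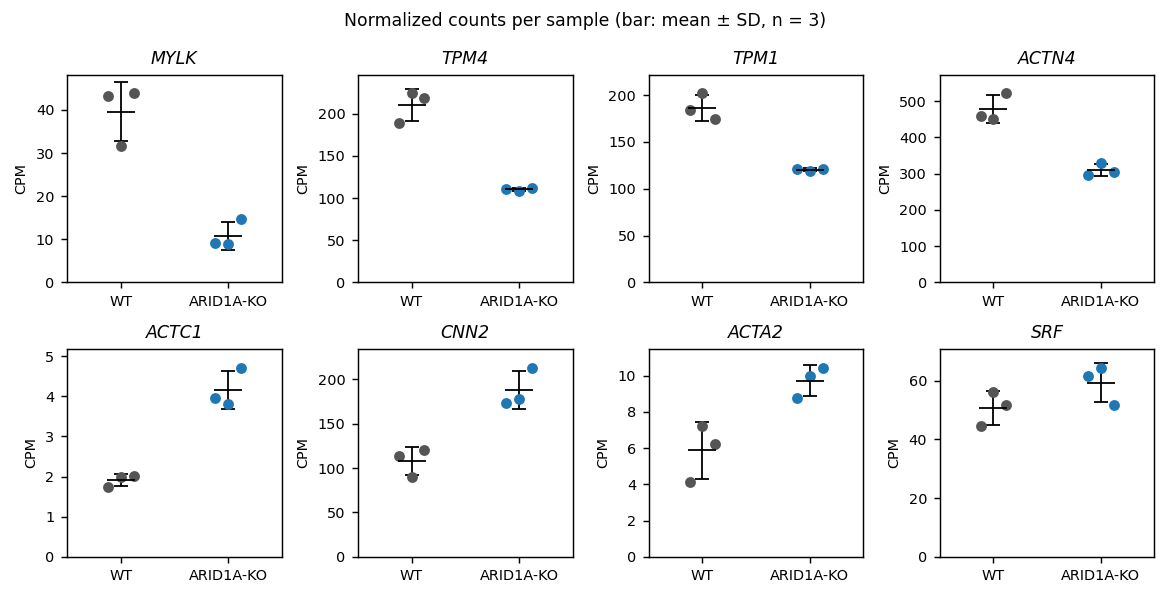
CPM of 8 contractile genes in each WT and ARID1A-KO sample (points), with the mean ± SD of each genotype (n = 3) and the vertical axes starting at 0. MYLK, TPM4, TPM1 and ACTN4 have every ARID1A-KO point below the WT points, ACTC1, CNN2 and ACTA2 have every ARID1A-KO point above them, and SRF overlaps.

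Of the alpha-actinins, which crosslink actin filaments, ACTN4 had 460, 450 and 521 CPM in WT and 297, 328 and 305 CPM in ARID1A-KO samples. The genotypes were well separated, and ACTN4 fell by 0.62 (SE 0.076, adjusted p = 0.000256), against a median of 0.13 for its 250 neighbours on chromosome 19. ACTN1, the other non-muscle alpha-actinin, had 509, 654 and 622 CPM in WT and 514, 554 and 486 CPM in ARID1A-KO samples, where WT 3 lay within the ARID1A-KO range. Its log2 fold change was -0.20, with a 95% interval from -0.42 to 0.019 (adjusted p = 0.140). Without WT 3 the value was -0.31 (adjusted p = 0.0227), and with the neighbours' median of 0.32 taken off it was -0.52 (adjusted p = 0.00355). Without the filter on low counts its adjusted p was 0.0389. ACTN2, the alpha-actinin of the sarcomeric Z-disc, was low, with 2.32, 3.34 and 2.17 CPM in WT and 3.86, 4.04 and 3.92 CPM in ARID1A-KO samples. It rose by 0.59 (SE 0.18, adjusted p = 0.0265) without overlap, and the call was lost without ARID1A-KO 3 (adjusted p = 0.0612), ARID1A-KO 4 (0.0797), WT 3 (0.0931) or WT 5 (0.0888). Neither filamin passed the test. FLNA had a log2 fold change of -0.11 with a 95% interval from -0.32 to 0.091 (adjusted p = 0.362), and FLNC, the muscle-enriched filamin, had 0.15 with an interval from -0.095 to 0.39 (adjusted p = 0.320).

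Of the 3 adhesion plaque genes, vinculin was the 1 called. VCL, which links talin to actin under load, had 145, 158 and 165 CPM in WT and 111, 117 and 105 CPM in ARID1A-KO samples. No sample overlapped, and VCL fell by 0.49 (SE 0.070, adjusted p = 0.000649). Its 88 neighbours on chromosome 10 had a median of 0.40 in the other direction, and with it taken off the value was -0.89 (adjusted p = 3.55e-05). TLN1, talin, which binds integrins and vinculin, had a log2 fold change of -0.17 with a 95% interval from -0.33 to -0.0085 (adjusted p = 0.0936), and -0.24 with its neighbours' median taken off (adjusted p = 0.0301). ZYX, zyxin, which gathers at strained stress fibers, had 0.11 with an interval from -0.061 to 0.29 (adjusted p = 0.284), and 0.25 with its neighbours' median taken off (adjusted p = 0.0336).

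The transcription factors of the list showed no call. SRF had 44.5, 56.0 and 51.6 CPM in WT and 61.7, 64.4 and 51.8 CPM in ARID1A-KO samples, and ARID1A-KO 5 lay within the WT range. Its log2 fold change was 0.23, with a 95% interval from -0.011 to 0.46 (adjusted p = 0.124). Without ARID1A-KO 5 it was 0.32 (adjusted p = 0.0328), and without the filter on low counts the adjusted p of SRF was 0.0346. MYOCD, myocardin, the SRF partner that drives smooth muscle genes, had 11, 8 and 8 counts in WT and 2, 17 and 8 counts in ARID1A-KO samples, too few to be tested.

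To follow the balance within families, each gene was also expressed as a share of its family's summed TPM, which does not depend on library scaling or on changes common to the family. Shares within a family are tied to each other, so a fall of a gene raises the shares of the others. They also rest on the annotated gene length by which TPM divides the counts. With 3 samples against 3, the smallest p that an exact two-sided permutation test allows is 0.1, and every difference in share named here without overlap has that value. TPM4 made up 16.6 ± 0.654% of tropomyosin TPM in WT and 9.55 ± 0.50% in ARID1A-KO samples (SD, n = 3), and TPM1 12.9 ± 1.02% and 9.14 ± 0.407%. TPM2 made up 35.4 ± 0.589% in WT and 43.3 ± 1.04% in ARID1A-KO samples, although its own CPM was not called. None of these shares overlapped between genotypes. Among alpha-actinins, ACTN4 made up 58.1 ± 3.43% in WT and 50.7 ± 1.03% in ARID1A-KO samples, and ACTN1 41.5 ± 3.36% and 48.6 ± 1.05%. The ACTN1 share rose although its own log2 fold change was -0.20. Which gene has the larger share depends on the annotated lengths, 10626 bases for ACTN1 and 6103 for ACTN4. Without length correction ACTN1 lay above ACTN4 in both genotypes. Mean CPM were 595 and 477 in WT and 518 and 310 in ARID1A-KO samples. CNN2 made up 18.6 ± 3.29% of calponin TPM in WT and 30.1 ± 3.17% in ARID1A-KO samples, and CNN3 75.9 ± 4.26% and 63.9 ± 2.78%. MYL12A made up 13.9 ± 1.33% of the TPM of the 3 regulatory light chains in WT and 9.82 ± 1.24% in ARID1A-KO samples. MYH14 was a small part of the heavy chains, at 3.17 ± 0.212% in WT and 4.78 ± 0.294% in ARID1A-KO samples. FLNA made up 40.9 ± 0.87% of filamin TPM in WT and 36.7 ± 1.18% in ARID1A-KO samples, although the CPM of both filamins overlapped. The shares of CNN1, MYL9, MYH10, TAGLN and TAGLN2 overlapped between genotypes (exact permutation p = 0.4, 0.3, 0.4, 0.8 and 0.8).

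**Figure D4:**
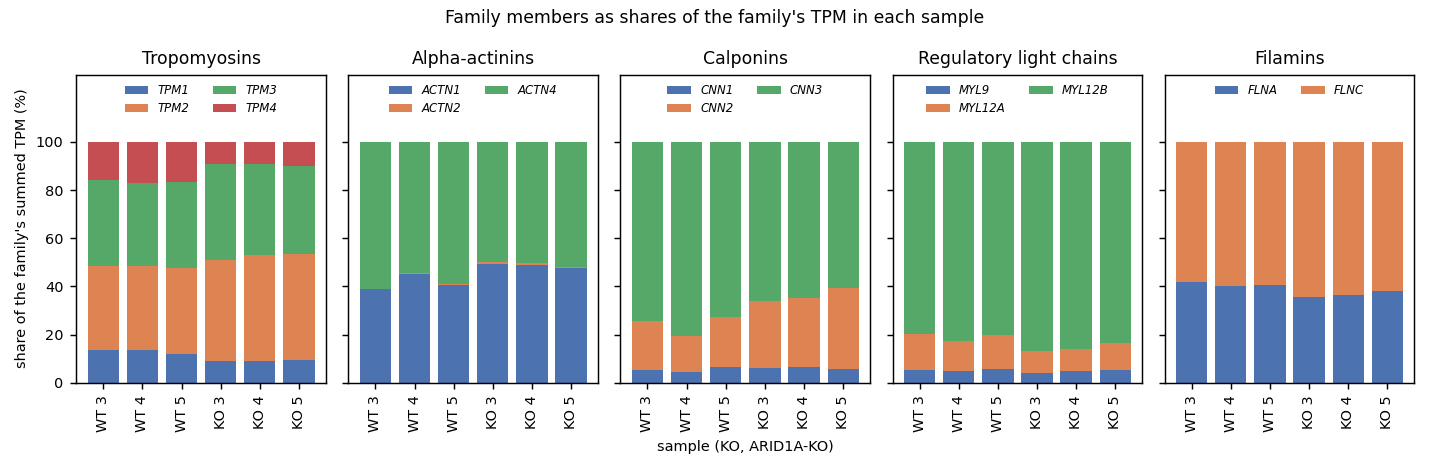
Share (%) of each gene in its family's summed TPM, with 1 stacked bar for each of the 3 WT and 3 ARID1A-KO samples. The TPM4 segment shrinks from a mean of 16.6% in WT to 9.55% in ARID1A-KO samples, and the CNN2 segment grows from 18.6% to 30.1%.

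The genes that work with these proteins were described through 4 further lists. The first holds 11 cofactors and regulators of SRF, of which 10 were tested, 3 were lower and none was higher (30% called, against 36.2% of all genes), with a median of -0.047. FHL2, a LIM-domain cofactor of SRF, fell from 269 ± 43.3 to 157 ± 5.83 CPM (log2 fold change -0.78, adjusted p = 0.000419). FHL1 fell by 0.31 (adjusted p = 0.0275) and MRTFB, a myocardin-related factor, by 0.27 (adjusted p = 0.038). The calls of FHL1 and MRTFB were each lost without WT 3, WT 5, ARID1A-KO 3 or ARID1A-KO 4 and with the neighbours' median taken off (adjusted p = 0.0855 and 0.104), and 1 gene of the list was called without WT 3, ARID1A-KO 3 or ARID1A-KO 4.

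The second list holds 38 genes of actin assembly and turnover, all tested, with 6 higher and 8 lower (36.8% called, against 36.2% of all genes) and a median of -0.014. DIAPH3, a formin that elongates filaments, fell from 75.3 to 28.1 CPM (log2 fold change -1.42, adjusted p = 4.78e-06), and TMOD3, which caps the pointed end of tropomyosin-coated filaments, from 109 to 56.5 CPM (log2 fold change -0.95, adjusted p = 2.64e-05). CAP2 fell by 0.90 (adjusted p = 4.2e-05). Other formins went both ways. DAAM1 rose by 0.62 (adjusted p = 0.000329) and FHOD1 by 0.55 (adjusted p = 0.00053). FMNL2, outside the naming rule for its low level, rose by 1.30 (adjusted p = 0.00139). Counts from the other strand came to 54.8% of the reverse-stranded counts of FMNL2. DIAPH1 fell by 0.32 (adjusted p = 0.0019), and DIAPH2 and FMNL3 were not called. The 137 neighbours of FHOD1 had a median of 0.55 as well, and with it taken off its value was -0.0036 (adjusted p = 0.977). ARPC4, a subunit of the Arp2/3 complex, rose by 0.37 (adjusted p = 0.00928) and ARPC5L by 0.23 (adjusted p = 0.0184). ARPC5 fell by 0.34 (adjusted p = 0.00279), and ACTR2, ACTR3, ARPC1A, ARPC1B, ARPC2 and ARPC3 of the same complex were not called.

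The third list holds 41 other crosslinkers and adhesion plaque genes. Of 39 tested, 5 were higher and 16 lower (53.8% called, against 36.2% of all genes), with a median of -0.30. PALLD, palladin, which binds alpha-actinin in stress fibers, fell from 165 ± 18.0 to 36.3 ± 6.95 CPM (log2 fold change -2.18, adjusted p = 6.05e-06). Its 25 neighbours had a median of -1.15, and with it taken off the value was -1.02 (adjusted p = 0.000456). TLN2, the second talin, fell from 125 ± 18.1 to 46.7 ± 2.62 CPM (log2 fold change -1.42, adjusted p = 1.67e-05), with a median of -0.045 among its neighbours. KANK2, which binds talin at the rim of adhesions, fell by 0.86 (adjusted p = 0.000309). The 244 neighbours of KANK2 had a median of -0.28, and with it taken off the value was -0.58 (adjusted p = 0.00357). In the other direction, TGFB1I1, the paxillin relative Hic-5, rose by 0.52 (adjusted p = 0.00147), the filament bundler FSCN1 by 0.40 (adjusted p = 0.0157) and the kindlin FERMT2 by 0.32 (adjusted p = 0.00495). The call of FSCN1 was lost without WT 3 (adjusted p = 0.0725) or ARID1A-KO 4 (0.0607), and that of FERMT2 with its neighbours' median taken off (0.154).

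The fourth list holds 29 other filament genes of striated and smooth muscle, of which 14 were tested, 1 was higher and 3 were lower (28.6% called, against 36.2% of all genes), with a median of 0.067. MYH2, a fast skeletal heavy chain, fell from 4.40 to 1.03 CPM (log2 fold change -2.07, adjusted p = 0.000506), MYL2, a ventricular and slow skeletal light chain, from 5.47 to 2.20 CPM (log2 fold change -1.31, adjusted p = 0.00013) and NEB, nebulin, from 10.5 to 5.82 CPM (log2 fold change -0.84, adjusted p = 0.000558). Counts from the other strand came to 76.4% of those of NEB, and in counts without regard to strand its value was -0.44 (adjusted p = 0.00984). For MYH2 they came to 41.7%, and its value in counts without regard to strand was -1.55. SMTNL2, a smoothelin-like gene outside the naming rule for its low level, was the 1 that rose, from 0.150 to 0.276 CPM (log2 fold change 0.88, adjusted p = 0.0466). No gene of the list was called higher by DESeq2, with at least 10 counts in every sample, with the neighbours' median taken off, or without WT 3, ARID1A-KO 3, ARID1A-KO 4 or ARID1A-KO 5. Sarcomeric genes thus moved in both directions at low levels, with ACTC1 and ACTN2 higher and ACTA1, MYH2, MYL2 and NEB lower. The 7 regulators of skeletal and cardiac muscle summed to between 24.9 and 29.2 CPM in WT and between 26.9 and 30.1 CPM in ARID1A-KO samples, nearly all from PAX7 and NKX2-5, and MYF5, MYF6 and MYOG were at or near 0. Of the 4 tested, 2 were higher (50%, against 17.8% of all genes tested). They were TBX5, by 1.49 (adjusted p = 0.00136), and MYOD1, by 2.0 (adjusted p = 0.00221), both below 1 CPM in every sample. The part of these shifts in the values of sarcomeric genes was not tested.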

How the data were processed

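The 6 RNA-seq samples were grouped by the genotype in their labels. Libraries were made with a stranded total RNA kit, although the labels name polyA RNA. Read pairs had been aligned by the authors to GRCh37 (hg19) using STAR within the Roddy workflow. The deposited counts are featureCounts' raw whole numbers for each gene. Versions of these tools are not given in the sources used here. The authors also deposited TPM values, of which the columns with the same sum in each sample were used for levels and family shares. Reverse-stranded counts were taken as the gene counts, since forward-strand counts came to 5.83 to 6.15% of them.

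Low counts were removed by filterByExpr and libraries scaled by TMM. The genotypes were compared by edgeR's quasi-likelihood test, without covariates, and p-values were adjusted over all genes tested by Benjamini and Hochberg's method (edgeR 4.0.16, R 4.3.3). Genes with an adjusted p under 0.05 were called. SE is the log2 fold change divided by the root of the F statistic, and intervals use the fit's degrees of freedom. Family shares were compared with two-sided exact permutation tests. Neighbours are the other tested genes whose start lies within 5 Mb, and their median was taken off where at least 10 were present. The code of the fits was also run on simulated counts with the same dispersion for every gene and few changed genes. That setting is simpler than these data and says nothing about the calls made here.

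The 13 alternatives to the fit were counts without regard to strand, RLE normalization, DESeq2 1.42.0, no filter, at least 10 counts in every sample, the replicate number as a block, the neighbours' median taken off, and each of the 6 samples left out in turn; an adjusted p under 0.01 was a further threshold. For the named genes of the other lists they were added after seeing the data. In those lists, up to 3 rises and 3 falls were named among called genes with a mean log2 CPM over 1. Further genes of the actin assembly list are given without their values in the alternatives. Per-sample values were fixed for members called with at least a 2-fold change and for SRF and MYOCD, and were also given for other members. The members and lists were chosen with earlier results of these data known. PECAM1 of the endothelial list was not matched to a single gene and was left out, and the results of 1 further list are not reported here.

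A check for a library deposited more than once found none, as samples of one genotype differed by more than sampling noise (chi-square per gene of 6.94 to 29.8). At these depths counting error matters only for the lowest genes. The study describes its data as coming from independent experiments, and the labels do not say how samples were separated. The p-values weigh the difference between genotypes against the spread of these samples within a genotype. They cannot tell effects of genotype and clone apart.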

Additional observations from a re-analysis of the deposited data

How the results depend on the processing

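Of the 32 tested contractile genes, 18 were called, and between 16 and 20 under the alternatives that kept all samples. Leaving out 1 sample gave between 12 (without ARID1A-KO 4) and 17 (without ARID1A-KO 5), with fewer samples behind each test. At an adjusted p under 0.01, 10 were called. For the SRF cofactors the count of 3 became 1 at an adjusted p under 0.01 and with the neighbours' median taken off, and ranged from 1 to 4 when samples were left out. The log2 fold change of TPM3 ranged from -0.070 to 0.044 when samples were left out, and was positive without WT 5 (0.0058) and without ARID1A-KO 5. That of LMOD1 was 0.021 in counts without regard to strand, and that of FHOD1 was -0.0036 with the neighbours' median taken off. Among family shares, the difference (ARID1A-KO minus WT, in percentage points) was 0.138 for ACTA2 and 0.0022 for MYH11, and, in the same direction, 0.059 and 0.0139 in TPM without regard to strand. It ranged from -0.000285 to 0.000999 for ACTG2, from -0.13 to 0.219 for TAGLN and from -0.219 to 0.13 for TAGLN2 when samples were left out. The cause of these changes was not tested. Apart from TPM3 and LMOD1, the log2 fold changes of the members kept their direction in all 13 alternatives.

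Samples of the genotypes share the numbers 3 to 5. The deviations of same-numbered samples correlated at -0.177, 0.268 and 0.18, and 2 of the 3 WT samples correlated best with another number. For WT 4 the values were close, at 0.268 with ARID1A-KO 4 and 0.28 with ARID1A-KO 3. Such correlations among 3 samples per genotype cannot tell whether same-numbered samples belong together. With the replicate block, 17 contractile genes were called in place of 18 (MYL6 had an adjusted p of 0.0604), and 7477 of all genes in place of 7099.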

Other observations

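Besides the contractile genes, 4 of the 6 tested osteoblast markers were lower in ARID1A-KO cells. SPARC (osteonectin), a matrix glycoprotein, had 784, 795 and 692 CPM in WT and 433, 416 and 380 CPM in ARID1A-KO samples, and fell by 0.89 on the log2 scale (edgeR's quasi-likelihood test, adjusted p = 4.5e-05). ALPL, the alkaline phosphatase needed for mineralization, had 5.74, 11.5 and 11.8 CPM in WT and 1.54, 1.69 and 2.06 CPM in ARID1A-KO samples and fell by 2.45 (adjusted p = 0.000148). SPP1 (osteopontin) fell by 1.45 (adjusted p = 0.00222) and COL1A1, a chain of type I collagen, by 0.47 (adjusted p = 0.0129), all without overlap between genotypes. COL1A2, the other chain of type I collagen, was below 1 CPM and had a log2 fold change of -0.46 (adjusted p = 0.365), and IBSP, BGLAP and SP7 were not tested. RUNX2, the transcription factor of the osteoblast lineage, had a log2 fold change of -0.033 (adjusted p = 0.899). These genes were described after their values were seen.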
